A study of Mus musculus with 48 samples.

Results

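The genes described here are 9 markers of the fibroblasts that line the brain's surface and its larger vessels: Col1a1, Col1a2, Col3a1, Dcn, Lum, Igf2, Igfbp2, Slc6a13 and Slc6a20a. They were taken by symbol, matched to the Ensembl gene IDs of the expression table, and are 9 of its 52636 genes. The rule uses no measured value, but the set was put together with earlier results of these data known. None of them was at 0 in any of the 48 libraries, and all 9 passed the filter on low values in every comparison.

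Fibroblasts of the leptomeninges and of the space around penetrating vessels secrete the fibrillar collagens and small leucine-rich proteoglycans of the brain's connective tissue, growth factors of the insulin-like family, and carry transporters that take up amino acids and neurotransmitters at the brain's border. Such cells are not part of the brain parenchyma, so a tissue punch holds them only where it includes surface, vessels or the stroma of the choroid plexus. Igf2, Igfbp2 and Slc6a20a are also known from the choroid plexus itself, whose epithelium is marked by Ttr, the gene of the thyroid hormone carrier transthyretin, and Igfbp2 is made by astrocytes too.

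RNA sequencing had been performed on amygdala punches of 48 female mice of the strain labelled C57BL/6NTac-Brd1 (C57BL/6NTac-Brd1tm1.2Arte/AborgMmucd in the study's methods), aged 8 to 11 weeks per the study's methods, with 8 mice in each of 6 groups. WT mice had both copies of Brd1, a gene for a bromodomain protein of histone acetyltransferase complexes, and Brd1+/- mice were heterozygous for a targeted deletion, made with loxP sites around exons 3 to 5, in a single mouse line. Each genotype had received saline (vehicle), the tricyclic antidepressant imipramine at 10 mg/kg (IMN) or the serotonin reuptake inhibitor fluoxetine at 5 mg/kg (FLX). Mice of all 6 groups shared the injections, and per the study's methods they had passed behavioural tests ending with forced swimming shortly before the tissue was taken. The study asked how reduced Brd1 expression alters gene expression in the female brain and whether antidepressants act on this.

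Values are TPM, transcript abundances in which reads are divided by gene length and scaled to the same total in every library, so that levels can be set side by side between genes. The number of reads behind a TPM value is unknown here. Among vehicle mice, Brd1 averaged 35.6 ± 5.09 TPM (SD, n = 8) without the deletion and 26.0 ± 2.90 TPM (SD, n = 8) with it, a log2 difference of -0.45 ± 0.10 (SE) that missed the threshold (limma with Benjamini-Hochberg adjustment, adjusted p = 0.0512), and it passed in FLX mice (-0.49 ± 0.11, adjusted p = 0.0362) but not in IMN mice (-0.68 ± 0.12, adjusted p = 0.102), where the genotypes did not overlap. Under vehicle it passed in 4 of 27 alternative fits and under IMN in 4 of 26, with median-ratio scaling (adjusted p = 0.00822 and 0.00115) and 1 limma fit of all 48 libraries (adjusted p = 0.0128 and 0.00151) among them. The share of all genes whose ranges did not overlap between IMN-treated genotypes was not computed. The neuronal gene Snap25 ranged from 883.1 to 2212 TPM. Markers of parts of the amygdala differed widely between libraries: Rspo2, of the basolateral part, ranged from 0.0818 to 31.4 TPM and Prkcd, of the central part, from 8.40 to 164.1 TPM.

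Some libraries stood apart in the members before any comparison was made. Ttr ranged from 0 in 3 libraries through a median of 9.03 TPM to 28369 TPM in WT vehicle 1 and 27594 TPM in Brd1+/- FLX 8. Those 2 libraries between them held the highest value of all 18 genes of a choroid plexus epithelium list. WT FLX 6 held the highest value of 16 of 30 other meningeal genes, with 25.2 TPM of Aldh1a2, a retinoic acid synthesizing enzyme of meninges, against a median of 1.46 TPM, and 4541 TPM of Ptgds, prostaglandin D synthase, against 515.7 TPM, while its Ttr was 2.56 TPM. Some results below are also given without 1 or more of these 3 libraries. The most alike genes, the r with list sums and the r within groups were computed only with them included.

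The collagen genes were low and did not share 1 highest library. Col1a1 and Col1a2, whose products form type I collagen, had medians of 2.94 TPM (range 0.502 to 19.8) and 5.79 TPM (1.55 to 22.1) over the 48 libraries. Col3a1, for type III collagen, had a median of 1.11 TPM (0.241 to 4.07). Col1a1 was highest in Brd1+/- vehicle 8 at 19.8 TPM, where Col1a2 was 16.8 TPM but Col3a1 1.13 TPM, close to its median. In WT FLX 1, Col1a1 was at its lowest, 0.502 TPM, while Col1a2 was 13.5 TPM. The ratio of Col1a1 to Col1a2 therefore ranged from 0.0373 in that library to 1.41, with a median of 0.502. Over the 48 libraries the log2 levels of Col1a2 and Col3a1 had a Pearson r of 0.75, and those of Col1a1 with either of them 0.65. The libraries share the punching and library steps, and these correlations are given as descriptions.

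The proteoglycan genes Dcn and Lum, for decorin and lumican, which bind collagen fibrils, are neighbours on chromosome 10. Dcn lies at chr10:97479609-97518143 and Lum at chr10:97565128-97572703, both on the plus strand (GRCm38, GENCODE M21), with 46984 bases and no annotated gene between them. Dcn had a median of 12.6 TPM and Lum of 1.22 TPM. Dcn was far above its other values in WT vehicle 5, at 322.3 TPM, where Lum was 1.3 TPM. It was also high in Brd1+/- IMN 3 at 100.7 TPM and in Brd1+/- FLX 7 at 92.0 TPM, where Lum was 1.92 and 2.78 TPM. In these 3 libraries Col1a2 was between 2.42 and 3.89 TPM, below its median of 5.79 TPM. Lum was thus near its median in the first, and above it in the other two. In the libraries next in Dcn, Brd1+/- vehicle 3 and Brd1+/- FLX 8, both Lum and Col1a2 were among their 5 highest values. The ratio of Dcn to Lum ranged from 3.56 in Brd1+/- FLX 8 to 248.1 in WT vehicle 5, with a median of 9.08. Ccn3, a matricellular protein gene on the meningeal list, was also highest in WT vehicle 5, at 359.7 TPM against a median of 19.1 TPM. Lum was highest in Brd1+/- FLX 8 at 13.5 TPM, followed by 6.87 TPM in WT vehicle 1.

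The growth factor genes reached the highest TPM values of the members, though relative to its lowest value Dcn ranged more widely than Igf2. Igf2 encodes insulin-like growth factor 2, an imprinted growth factor, and Igfbp2 a secreted protein that binds it. In WT mice Igf2 ran from 11.7 through a median of 17.5 to 430.6 TPM with vehicle, from 7.62 through 17.3 to 30.2 TPM with IMN, and from 10.3 through 21.8 to 136.3 TPM with FLX. In Brd1+/- mice it ran from 13.8 through 27.1 to 147.3 TPM with vehicle, from 12.8 through 22.6 to 72.9 TPM with IMN, and from 16.1 through 23.9 to 474.0 TPM with FLX. Group medians lay close together, and in each group 1 or 2 libraries set the top of the range. Igfbp2 had a median of 14.2 TPM over all libraries, with 406.9 TPM in WT vehicle 1 and 389.9 TPM in Brd1+/- FLX 8, and the same 4 libraries were highest for both genes: these 2, Brd1+/- vehicle 3 and WT FLX 2. Their log2 levels had an r of 0.88 over the 48 libraries and of 0.47 in the 35 libraries with Ttr under 100 TPM. Igf2 shares 62.8% of its exon bases on the same strand with Gm49394, which has no row in the table, so its value may hold reads of both.

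The transporter genes differed from each other in where they were highest. Slc6a13 encodes GAT2, a GABA and taurine transporter of leptomeninges, and Slc6a20a a proline and imino acid transporter. Slc6a13 had a median of 4.70 TPM and was highest in WT FLX 6 at 41.3 TPM, followed by 14.5 TPM in Brd1+/- IMN 4 and 14.4 TPM in Brd1+/- FLX 6. In the 2 libraries with the highest Ttr it was 4.37 TPM (WT vehicle 1) and 7.05 TPM (Brd1+/- FLX 8). Slc6a20a had a median of 5.14 TPM and was highest in exactly those 2 libraries, at 27.4 and 32.1 TPM, followed by 25.1 TPM in WT FLX 6. Slc6a13 was thus near its median in the first of them and above it in the second, and both genes were high in WT FLX 6. The ratio of Slc6a20a to Slc6a13 ranged from 0.605 in Brd1+/- FLX 6 to 6.26 in WT vehicle 1, with a median of 1.17. Slc6a20a shares 13.8% of its exon bases with the antisense gene Gm17120, and whether counting used the strand is not stated.

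**Figure D1:**
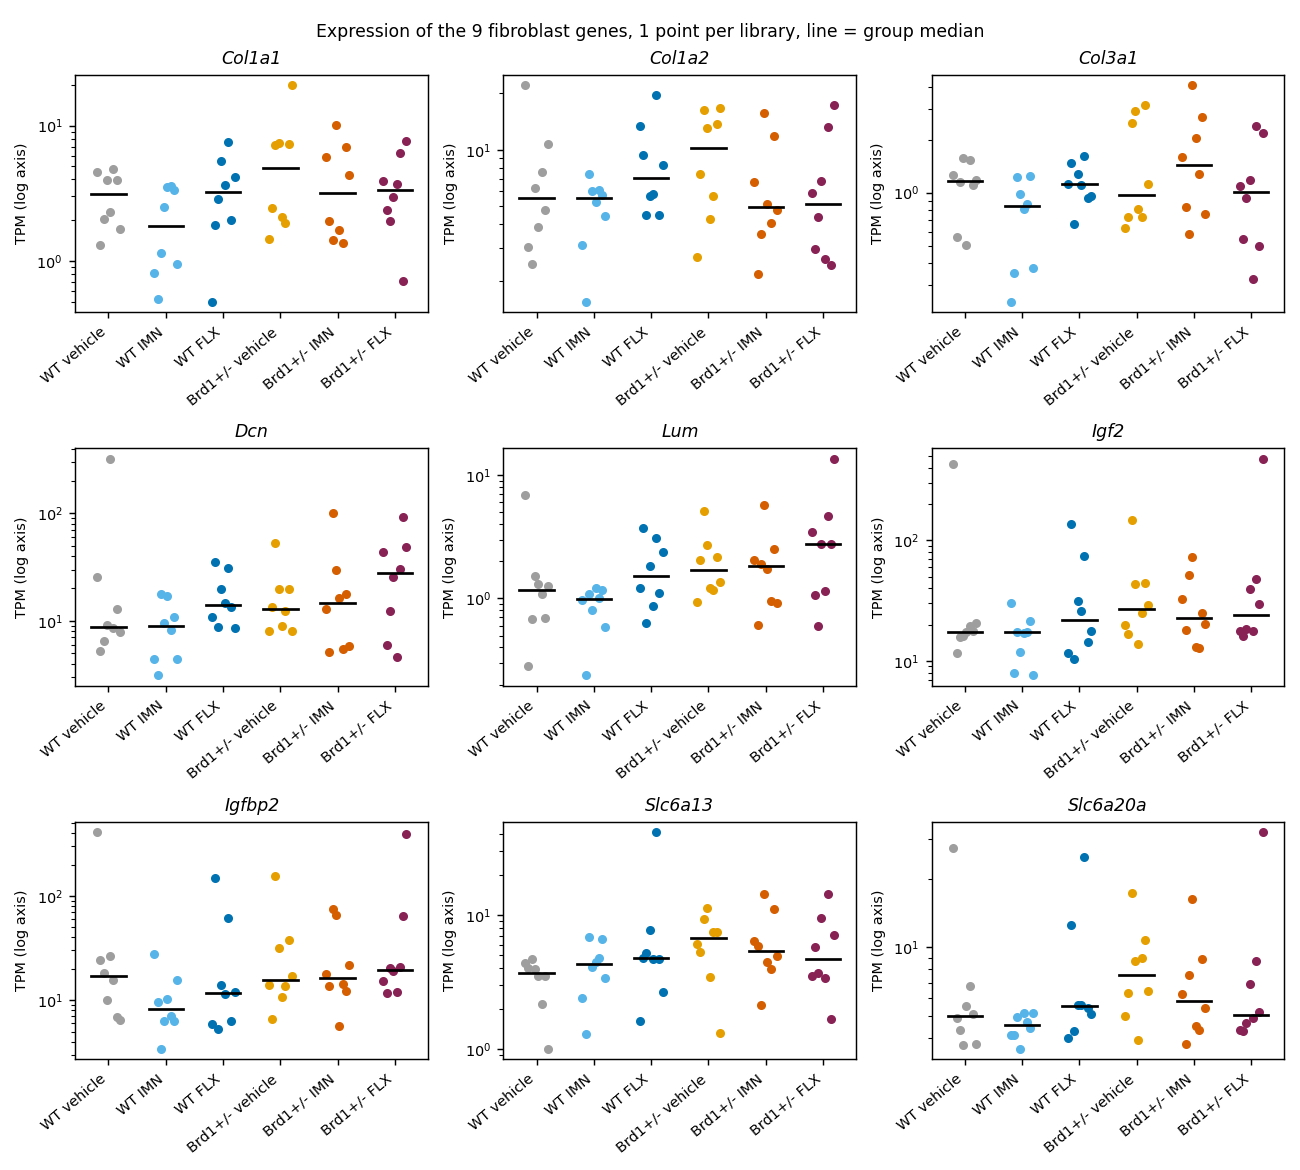
Level of each of the 9 genes in TPM on a log axis, 1 point for each of the 48 libraries in 6 groups of 8, with a line at the group median. The groups overlap for every gene, and single libraries such as WT vehicle 5 for Dcn (322.3 TPM) and WT FLX 6 for Slc6a13 (41.3 TPM) lie above the rest of their group.

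The bases directly before the transcription start are shown for Igf2, Igfbp2 and Slc6a20a, whose log2 levels had r between 0.82 and 0.90 with each other over the 48 libraries, and for Slc6a13, whose r with them was between 0.23 and 0.54. RefSeq promoter windows (GRCm38.p6) were found for 6 of the 9 members, with 12 starts in all; Col1a1, Dcn and Lum had none in the table. Each line gives the 120 bases upstream, 5′ to 3′ on the gene's strand, at the start with most matches to the GC box letters GGGCGG, and capitals mark those letters or their reverse complement CCGCCC. The windows are chr7:142657497-142657616 (minus strand, the start of Igf2 nearest its 3′ end of 4), chr1:72824360-72824479 (plus, Igfbp2), chr9:123678833-123678952 (minus, Slc6a20a) and chr6:121300168-121300287 (plus, Slc6a13).
Igf2: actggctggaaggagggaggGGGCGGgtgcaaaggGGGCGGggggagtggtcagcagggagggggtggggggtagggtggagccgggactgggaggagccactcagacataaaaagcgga
Igfbp2: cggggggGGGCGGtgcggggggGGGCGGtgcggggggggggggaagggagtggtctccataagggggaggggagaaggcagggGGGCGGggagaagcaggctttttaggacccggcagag
Slc6a20a: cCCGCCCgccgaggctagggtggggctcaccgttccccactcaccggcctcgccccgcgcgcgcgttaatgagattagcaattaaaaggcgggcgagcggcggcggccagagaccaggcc
Slc6a13: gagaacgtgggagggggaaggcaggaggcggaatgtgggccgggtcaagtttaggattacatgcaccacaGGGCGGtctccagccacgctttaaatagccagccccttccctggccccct
Igfbp2 has 3 matches, Igf2 2 and the transporters 1 each, in windows chosen for them, and the 250 bases before other starts of Igf2, Igfbp2 and Slc6a13 hold none, save 1 match at 1 start of Igf2. Of all 32851 promoter windows of the table, 32.7% hold the letters in the 250 bases before the start, on either strand, a share over starts that were not chosen by matches. CpG pairs numbered 16 in the Slc6a20a window, 7 in that of Igfbp2, 5 in that of Slc6a13 and 4 in that of Igf2. Among the collagens, the 250 bases before Col3a1 held no GC box letters and no CpG but 1 TATAAA (found in 12.4% of all windows, TTTATA included), and those before Col1a2 held 2 GC boxes and 1 CCAAT (33.8%, ATTGG included).

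The members were set against Ttr, the marker of choroid plexus epithelium. Of the 9 genes, 5 had log2 levels that correlated with Ttr over the 48 libraries, all positively (permutation test with 100000 resamples, two-sided, Benjamini-Hochberg adjusted over 27943 genes). Over all genes 6.09% passed, and 5.10% with a positive r. Igfbp2 had the highest r at 0.78, followed by Igf2 at 0.74, Lum at 0.64 and Slc6a20a at 0.62, each with the smallest p that the permutations can give (1e-05, adjusted p = 0.000699). Dcn passed with an r of 0.47 (adjusted p = 0.0202). Col1a2 missed the threshold at 0.40 (adjusted p = 0.0714), though it passed with a pseudocount of 1 (r = 0.42, adjusted p = 0.0425). Col3a1 at 0.26 (adjusted p = 0.339), Col1a1 at 0.20 (adjusted p = 0.512) and Slc6a13 at 0.01 (adjusted p = 0.984) missed it as well. The members therefore spread from the 99.8th percentile of r among all genes (Igfbp2) to the 39.1st (Slc6a13). Spearman's rho was 0.65 for Igfbp2, 0.54 for Igf2, 0.51 for Lum, 0.44 for Slc6a20a, 0.43 for Dcn and -0.01 for Slc6a13. By rho Igfbp2, Igf2 and Lum passed, and Slc6a20a (adjusted p = 0.0589) and Dcn (adjusted p = 0.0716, same permutation test) did not. Of all 27943 genes, 661 passed by rho.

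The relation with Ttr was seen where libraries rich in it were included. Ttr reached 100 TPM in 13 libraries, 1 in each WT group, 4 in Brd1+/- vehicle and 3 in each of Brd1+/- IMN and FLX. In these 13, Igf2 ranged from 29.3 through a median of 44.3 to 474.0 TPM, and Igfbp2 from 17.1 through 64.9 to 406.9 TPM. In the other 35 libraries Igf2 ranged from 7.62 through 17.5 to 73.8 TPM and Igfbp2 from 3.43 through 12 to 61.1 TPM. Slc6a13 ranged from 1.32 through 6.39 to 14.5 TPM in the 13 and from 1.01 through 4.50 to 41.3 TPM in the 35. Within the 13 libraries, r with Ttr was 0.92 for Igfbp2 and 0.89 for Igf2 (adjusted p = 0.00517 and 0.00835 by the same permutation test), and no other member passed. Within the 35 libraries no member had an unadjusted p under 0.05 and r was -0.01 for Igf2, 0.17 for Igfbp2 and 0.12 for Lum. None of the 26520 genes tested there passed, so the lack of a call is not particular to the members. Without the 2 libraries farthest from the median of Ttr, r was 0.71 for Igfbp2, 0.66 for Igf2, 0.53 for Lum and 0.48 for Slc6a20a, all still past the threshold, and 0.43 for Dcn, which no longer passed (adjusted p = 0.0906). Of all 27766 genes, 502 passed in this setting. With levels centred on the group means and permuted within groups, the same 4 genes passed and Dcn did not (r = 0.42, adjusted p = 0.12). Here 1258 of 27943 genes passed.

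Within single groups of 8 mice the r with Ttr is a description. For Igf2 it was positive in all 6, from 0.23 in WT IMN to 0.96 in WT vehicle. For Igfbp2 it ran from 0.59 in WT FLX and WT IMN to 0.91 in WT vehicle. Each WT group held 1 library with Ttr of at least 100 TPM. In WT vehicle this was WT vehicle 1, with Ttr at 28369 TPM against at most 51.5 TPM in the others. Its Igf2 was 430.6 TPM against 11.7 to 20.8 TPM in the others. The collagens differed between groups: in Brd1+/- vehicle r was 0.78 for Col1a1, 0.82 for Col1a2 and 0.79 for Col3a1, while in WT IMN it was -0.66, -0.45 and -0.73. WT IMN held 2 of the 3 libraries with Ttr at 0. It also held WT IMN 1, with Ttr at 1193 TPM and the lowest Col3a1 of the 48 libraries, 0.241 TPM. The r without these single libraries was not computed.

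**Figure D2:**
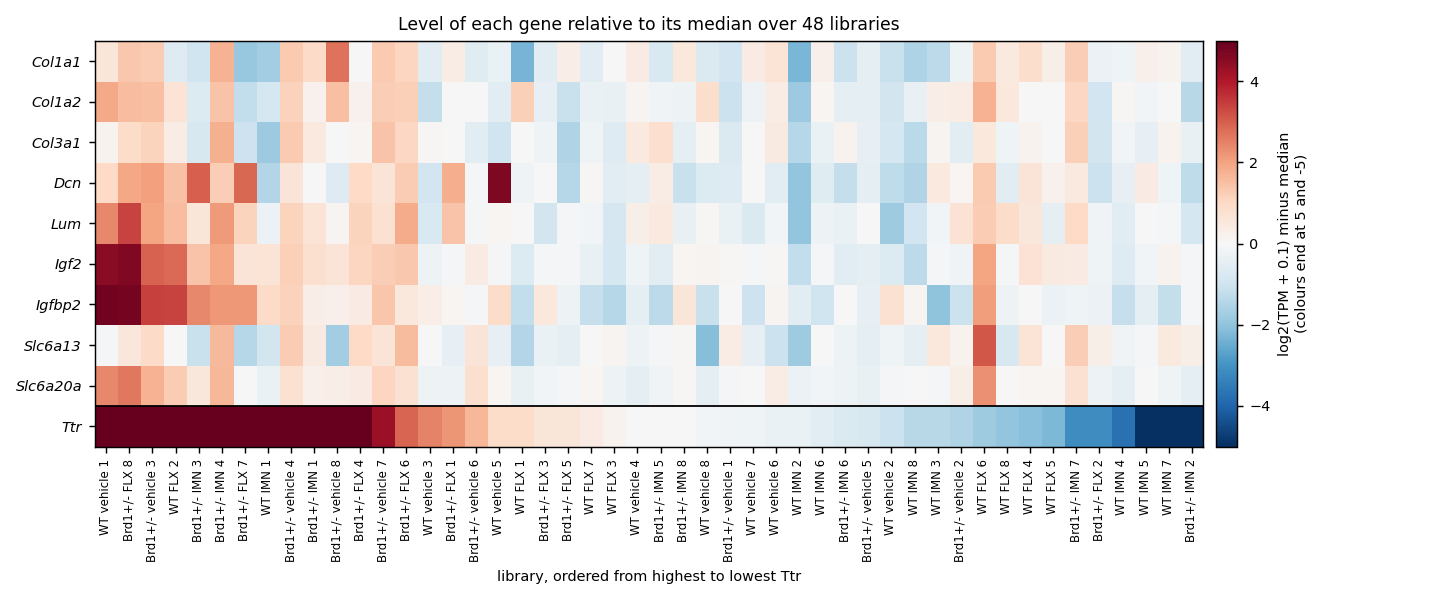
Log2 level of the 9 genes and Ttr (rows) relative to the gene's median in each of the 48 libraries (columns), ordered by Ttr, with colours that end at 5 and -5. Igf2 and Igfbp2 are highest at the left, where Ttr is highest, while WT FLX 6, at 2.56 TPM of Ttr, is among the 5 highest libraries for 5 members and WT vehicle 5 for Dcn alone.

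**Figure D3:**
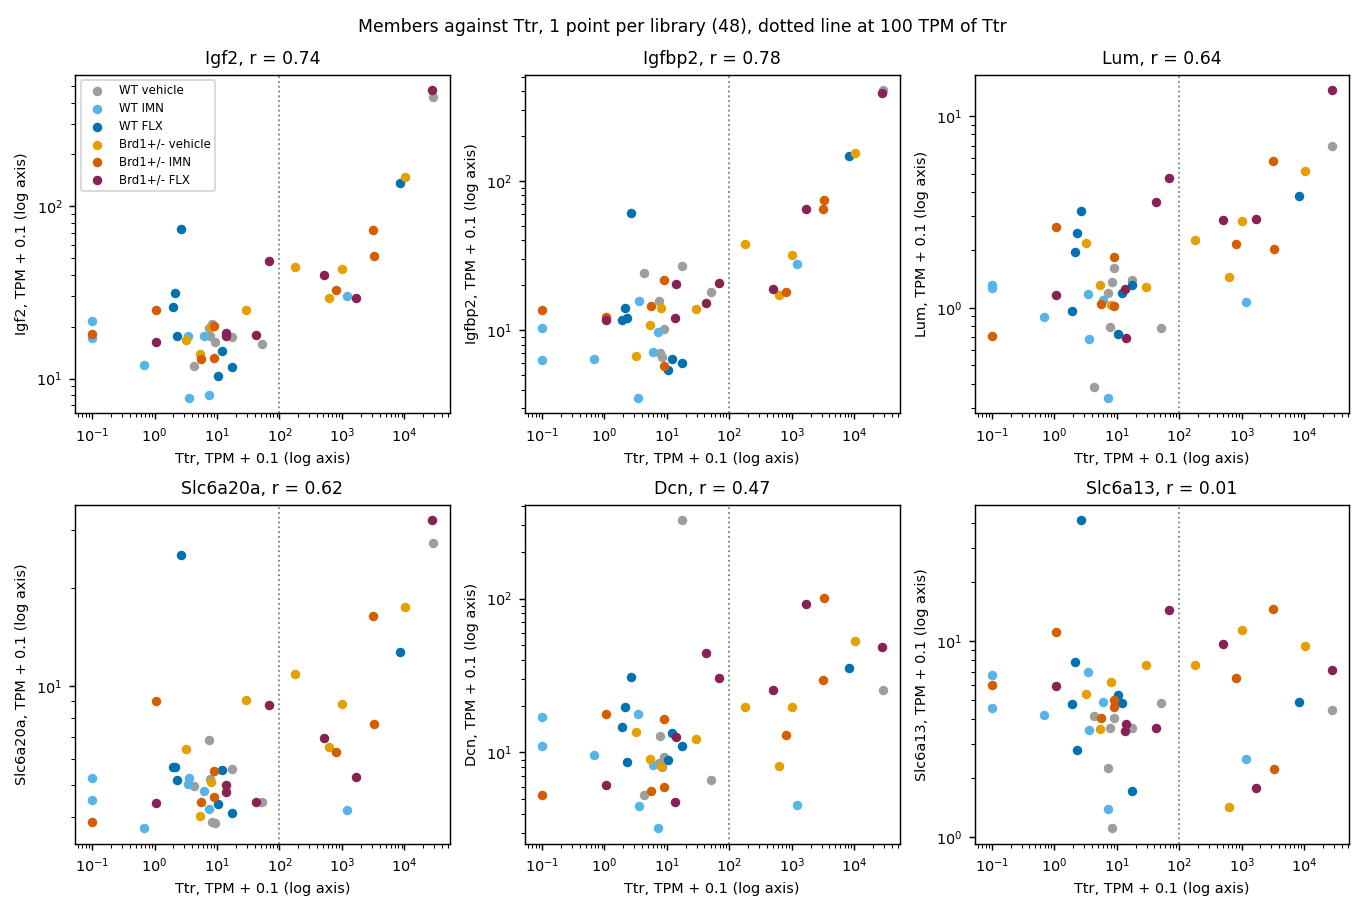
Level of 6 of the genes against Ttr in the 48 libraries, both as TPM + 0.1 on log axes, coloured by group. To the right of the dotted line at 100 TPM of Ttr, Igf2 and Igfbp2 climb with Ttr, and to the left of it they have no slope that can be seen, while Slc6a13 (r = 0.01) has none on either side.

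Among each other, members formed no single block. The closest pair was Igf2 with Slc6a20a at an r of 0.90, followed by Igf2 with Igfbp2 at 0.88, Lum with Igf2 at 0.83 and Igfbp2 with Slc6a20a at 0.82. The most distant were Col1a1 with Dcn at 0.22 and Slc6a13 with Igfbp2 at 0.23. In the 35 libraries with Ttr under 100 TPM, Igf2 with Slc6a20a stayed the closest pair at 0.75, but the order below it changed. Slc6a13 with Slc6a20a had 0.73 and Igf2 with Slc6a13 0.71, against 0.54 and 0.38 over all 48. Col1a2 with Lum had 0.71 against 0.72, and Col1a1 with Igf2 0.71 against 0.48. Col1a2 with Igfbp2 had 0.00 against 0.39. In 9 libraries all members were above their medians: Brd1+/- vehicle 3, 4 and 7, Brd1+/- IMN 1 and 4, Brd1+/- FLX 4, 6 and 8, and WT FLX 6. In WT IMN 2 none was, and 7 of the 9 were among their 5 lowest values.

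The genes whose levels were most like each member over the 48 libraries were sought among 19198 others with a mean of at least 1 TPM. For Igf2 they were Gpx8 (r = 0.93), an endoplasmic reticulum peroxidase, the sulfate transporter Slc13a4 (0.92) and the adhesion molecule Vcam1 (0.92). Slc13a4 came second for Slc6a20a too (0.89), between Ifitm3 (0.91) and the proteoglycan gene Ogn (0.88). For Igfbp2 they were Msx1 (0.93), a homeobox gene, Zfp185 (0.89) and Lbp (0.88). Lum was most like Prelp (0.87), a proteoglycan of the same family, then Ccdc114 (0.84) and Vcam1 (0.83). Col3a1 was most like the smooth muscle genes Myl9 (0.79) and Acta2 (0.77), followed by Cyp1b1 (0.76), and Col1a2 like Marveld1 (0.84), the matrix metalloproteinase gene Mmp14 (0.81) and Bicc1 (0.79). Col1a1 had weaker neighbours, Cp (0.70), Cyp1b1 (0.69) and Aldh1a2 (0.67), as did Slc6a13 with Lyz2 (0.73) and Efemp1 (0.70). Dcn was most like Aph1b (0.81), Icosl (0.79) and Npr3 (0.78), of which no one is a collagen or proteoglycan gene. Aph1b and Npr3 were highest in WT vehicle 5, as Dcn was, and rho with Dcn was 0.68 for Aph1b, 0.82 for Icosl and 0.77 for Npr3. The genes named for Igf2 and Igfbp2 were all highest in WT vehicle 1 or Brd1+/- FLX 8. Their rho was lower than r, as for Vcam1 with Igf2 (0.75) and Zfp185 with Igfbp2 (0.72). Against summed TPM of lists, Slc6a13 had its highest r with the other meningeal (0.68) and mural cell genes (0.66). Col3a1 had it with the mural cell genes (0.70), Igf2 with the choroid plexus genes without Ttr (0.89), and Lum with the ependymal genes (0.84). Single genes can dominate these sums: Ptgds was 4541 of 5284 TPM of the meningeal sum in WT FLX 6. Enpp2 was 5367 of 7952 TPM of the choroid plexus sum without Ttr in Brd1+/- FLX 8. By rho Slc6a13 was highest with the mural cell genes (0.69, against 0.64 for the meningeal), and Igf2 with the other fibroblast matrix genes (0.71, against 0.66 for the choroid plexus).

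The question of whether Brd1 loss or the drugs moved these genes was put to 12 comparisons, and no member passed in any of them (limma on log2(TPM + 0.1), Benjamini-Hochberg adjusted over all genes tested). In all pairs of groups compared the ranges of all 9 members overlapped. This is a description, as the share of all genes with overlapping ranges was not computed. In a test of any difference among the 6 groups, where 1.70% of 27944 genes passed, the smallest adjusted p of a member was 0.477 (Lum), and no member had an unadjusted p under 0.05. No gap between neighbouring groups in the order of mean log2 levels exceeded the pooled SD for any member. WT IMN had the lowest mean log2 level of 8 members, and WT vehicle that of Slc6a13. Within groups the members varied more than most genes: their SD on the log2 scale ran from 0.77 (Col3a1) to 1.52 (Igfbp2), between the 79.4th and 93.2nd percentiles of 19207 genes with a mean of at least 1 TPM, and the median SD of those genes was 0.38. Ttr had an SD of 4.50. In such punches fewer cells of a type and less RNA per cell cannot be told apart.

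Between vehicle-treated genotypes, where 0.708% of 24279 genes passed, 0 of 9 members passed and none had an unadjusted p under 0.05 (8.52% of genes did). The estimate was above 0 for 8 of the 9, with a median log2 difference of 0.36 against 0.03 over all genes. Slc6a13 came nearest: it ran from 1.01 through a median of 3.72 to 4.73 TPM in WT and from 1.32 through 6.77 to 11.3 TPM in Brd1+/- mice. Of the 8 Brd1+/- values 6 lay above the highest WT value. The log2 difference was 0.81 ± 0.40 (SE, 95% interval -0.03 to 1.64, unadjusted p = 0.0574, adjusted p = 0.61), and without Brd1+/- vehicle 8, at 1.32 TPM, it was 1.09 ± 0.32 (adjusted p = 0.285). Without WT vehicle 1, the estimates of Lum, Igf2 and Slc6a20a were 0.96 ± 0.37, 0.90 ± 0.39 and 0.67 ± 0.26, with unadjusted p-values of 0.0204, 0.0339 and 0.022 and a smallest adjusted p of 0.242. The estimates with this library had been 0.61, 0.32 and 0.36. The median of Ttr was 104.5 TPM in the Brd1+/- group against 8.64 TPM in the WT group (log2 difference 1.66 ± 1.91, adjusted p = 0.891), and 14 of 16 tested choroid plexus genes had an estimate above 0, with a median of 0.85. So did 12 of 12 mural cell genes (median 0.11) and 10 of 12 endothelial genes (0.25). Among ependymal genes 5 of 7 did (0.39), and among red blood cell genes 5 of 5 (0.64). Of the other meningeal genes 22 of 26 did (0.38), of the border macrophage genes 5 of 8 (0.26), and of the other fibroblast matrix genes 19 of 32 (0.09). The part of these lists in the members' estimates was not tested. With log2 Ttr as a covariate the estimate was -0.20 ± 0.27 for Igf2 and 0.09 ± 0.22 for Slc6a20a, and 0.72 ± 0.40 for Slc6a13.

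Between IMN-treated genotypes all 9 members had an estimate above 0, with a median log2 difference of 0.85 against 0.01 over all genes, and 0 of 9 passed, as did 0.0170% of 23581 genes. Among IMN-treated mice the highest animal codes in the labels all belonged to WT mice, above every Brd1+/- code, as among FLX-treated mice. Genotype was thus partly tied to the code range under both drugs. The covariate for code range split drug-treated mice into lower and higher codes, and the higher part held Brd1+/- mice too. It thus did not set apart the codes that only WT mice had. With this covariate no member passed. Col3a1 ran from 0.241 to 1.25 TPM in WT and from 0.585 to 4.07 TPM in Brd1+/- mice, with means of 0.762 and 1.73 TPM. Its log2 difference was 1.00 ± 0.41, that of Igfbp2 1.15 ± 0.50 and that of Lum 0.94 ± 0.40, with unadjusted p-values of 0.026, 0.0365 and 0.0295 in limma and an adjusted p of 0.9996 for each. These were 3 of 9 with an unadjusted p under 0.05, where 3.58% of all genes had one. Leaving out Brd1+/- IMN 4, the library with the highest Col3a1, left none, and leaving out Brd1+/- IMN 6 left 6. The share of all genes at such a p-value was not computed for these refits. Here too the choroid plexus genes lay on the same side: 14 of 15 tested had an estimate above 0 (median 1.29). So did 7 of 7 ependymal genes (median 1.21), while 1 of 12 endothelial and 4 of 12 mural cell genes did (medians -0.15 and -0.11). Of the other fibroblast matrix genes 23 of 32 did (0.21), and of the other meningeal genes 18 of 24 (0.14). Border macrophage and red blood cell genes had 5 of 5 each above 0 (0.53 and 0.39). The part of these lists in the members' estimates was not tested. The choroid plexus list summed to between 129.6 and 1567 TPM in WT and between 141.8 and 4254 TPM in Brd1+/- mice, and Folr1, Slc4a5 and Wfdc2 of that list had a median of 0 over the 48 libraries. With log2 Ttr as a covariate Col3a1 had 1.11 ± 0.44 (unadjusted p = 0.0223), Igfbp2 0.65 ± 0.41 and Lum 0.75 ± 0.41, so that 1 of 9 kept an unadjusted p under 0.05. The share of all genes was not computed for this fit either.

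Between FLX-treated genotypes, where 1.54% of 23635 genes passed, 0 of 9 members passed, and no member had an unadjusted p under 0.05 although 16.6% of all genes had one. Estimates ran from -0.51 ± 0.42 for Col1a2 to 0.86 ± 0.78 for Igfbp2, with 5 of 9 above 0 and a median of 0.12, against -0.06 over all genes. Of the other meningeal genes 4 of 24 were above 0 (median -0.45), and of the other fibroblast matrix genes 9 of 31 (-0.26). Choroid plexus and ependymal genes had 12 of 15 (0.68) and 6 of 7 (0.59) above 0. Endothelial genes had 2 of 12 (-0.18), mural cell genes 6 of 12 (0.01), border macrophage genes 4 of 7 (0.28) and red blood cell genes 1 of 5 (-0.17). The part of these lists in the members' estimates was not tested. Without Brd1+/- FLX 8 the estimate of Igf2 was -0.12 ± 0.50 in place of 0.41 ± 0.68. With log2 Ttr as a covariate the estimate of Igf2 was -0.33 ± 0.53, and that of Igfbp2 was -0.04 ± 0.58. Lum then had 0.09 ± 0.45 in place of 0.62 ± 0.53, and Dcn -0.07 ± 0.46 in place of 0.49 ± 0.55. Col1a2 had -0.76 ± 0.43 with this covariate. Genotype was partly tied to the range of the animal codes here too.

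**Figure D4:**
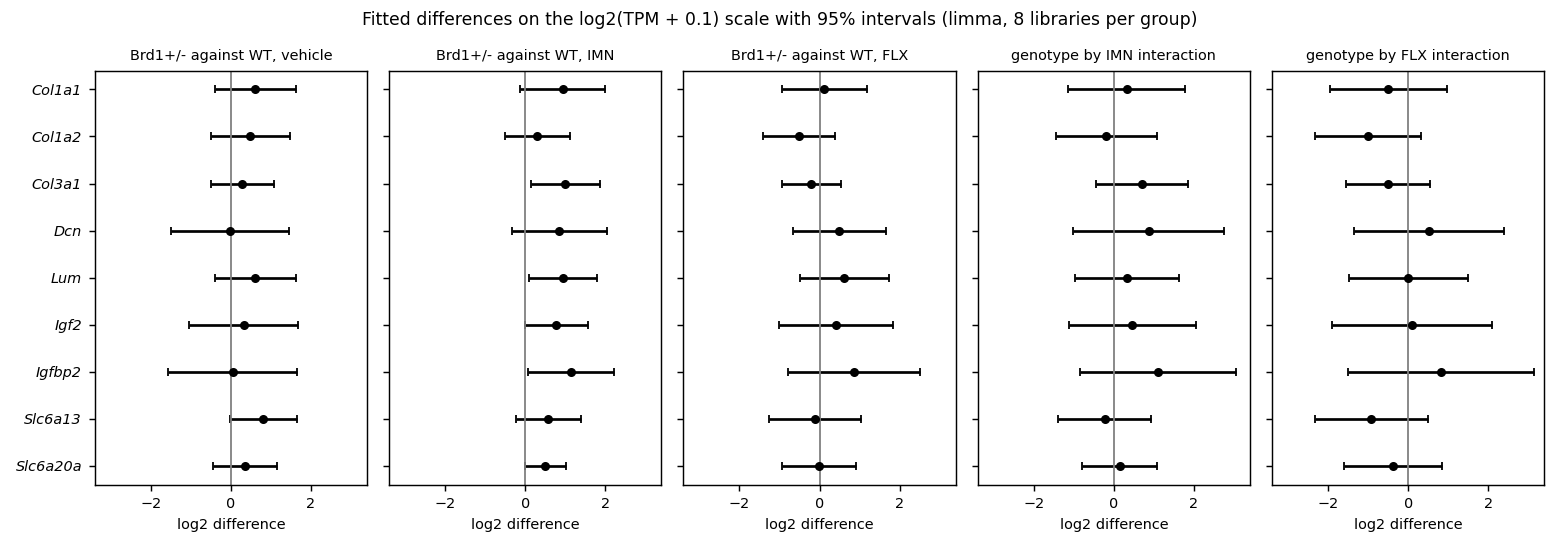
Log2 difference of each gene with its 95% interval for Brd1+/- against WT mice under vehicle, IMN and FLX, and for the difference of the genotype effect under each drug from that under vehicle. Every interval of the interactions spans 0, and in IMN mice those of Col3a1, Lum and Igfbp2 do not, before adjustment over all genes.

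Drug effects were tested within each genotype. In WT mice IMN against vehicle had 0 of 9 members and 0% of 23644 genes past the threshold, with no member at an unadjusted p under 0.05 (4.58% of genes), and 8 of 9 estimates were below 0 (median -0.57). Of the choroid plexus genes 3 of 14 and of the ependymal genes 0 of 7 had an estimate above 0 (medians -0.44 and -0.53), against 6 of 12 each of the endothelial and mural cell genes. Of the other fibroblast matrix genes 8 of 32 did (-0.19), and of the other meningeal genes 10 of 24 (-0.04). Border macrophage genes had 2 of 6 above 0 (-0.10) and red blood cell genes 1 of 5 (-0.02). FLX against vehicle in WT mice had 0 of 9 members, against 0.335% of 23557 genes, and a median of 0.08, with 8 of 9 estimates above 0. In Brd1+/- mice IMN against vehicle had 0 of 9, against 0.776% of 24225 genes, with a median of -0.12 and 2 of 9 estimates above 0. FLX against vehicle in Brd1+/- mice had 0 of 9, against 0.731% of 24336 genes, with a median of -0.13 and 4 of 9 above 0. None of the last 3 had a member with an unadjusted p under 0.05, which 16.8%, 9.30% and 6.94% of genes had. These comparisons share vehicle libraries within a genotype. Among them, counts of the gene lists are given for IMN in WT mice only. All vehicle mice have lower animal codes in the labels than all drug-treated mice, with no overlap, so in every comparison of drug with vehicle, interactions included, the drug and the code range cannot be told apart.

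FLX against IMN in WT mice had 0 of 9 members and 0% of 23501 genes past the threshold, but all 9 estimates were above 0 (median 0.77, against 0.05 over all genes). So were those of 15 of 15 choroid plexus genes (median 0.70), 7 of 7 ependymal (0.75) and 11 of 12 endothelial genes (0.16). Among mural cell genes 9 of 12 were (0.09), and among red blood cell genes 5 of 5 (0.38). Of the other fibroblast matrix genes 27 of 32 were above 0 (0.48), of the other meningeal genes 20 of 24 (0.57), and of the border macrophage genes 3 of 5 (0.29). The part of these lists in the members' estimates was not tested. FLX against IMN in WT mice shares the WT IMN libraries with the comparison of IMN-treated genotypes. Dcn ran from 3.12 through a median of 8.86 to 17.7 TPM with IMN and from 8.58 through 14 to 35.1 TPM with FLX, and its log2 difference was 0.96 ± 0.39, while Lum had 0.88 ± 0.37 and Col1a2 0.77 ± 0.34. Their unadjusted p-values were 0.0259, 0.0301 and 0.0388 in limma, and each had an adjusted p of 0.858. These were 3 of 9 at an unadjusted p under 0.05, against 4.78% of genes. Without WT FLX 6 there were 0, as without WT FLX 2, WT IMN 2 or WT IMN 8. The share of all genes at such a p-value was not computed for these refits. In Brd1+/- mice FLX against IMN had 0 of 9 members and 0% of 23724 genes past the threshold, with none at an unadjusted p under 0.05 (2.99% of genes) and a median of 0.08.

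The difference in genotype effect between drug and vehicle was tested directly. For IMN 0 of 9 members passed (0.536% of 26673 genes) and for FLX 0 of 9 (1.71% of 26657 genes), with no member at an unadjusted p under 0.05 in either, where 9.24% and 16.8% of genes had one. Intervals were wide. For Igfbp2 the FLX interaction was 0.82 on the log2 scale with a 95% interval from -1.50 to 3.15, and for Col1a2 it was -1.0 with an interval from -2.33 to 0.32.

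The genes of the same pathways had few calls. Of 33 further fibroblast matrix genes, 31 to 33 of which were tested, 1 passed in any comparison: Col15a1, a basement membrane collagen gene, was lower in Brd1+/- than in WT FLX mice, with means of 2.31 and 6.75 TPM (log2 difference -1.37 ± 0.31, limma adjusted p = 0.0369), where 1.54% of all genes passed. Of 30 further meningeal genes found in the table, up to 28 of which were tested, 1 passed: Gjb6, for connexin 30, which astrocytes express too, was higher in FLX than in vehicle WT mice (128.3 and 65.7 TPM, 1.03 ± 0.21, adjusted p = 0.0498), where 0.335% of all genes passed. Among 9 other transporters of the Slc6 family, of which 7 were tested between FLX-treated genotypes and 8 in the interaction, Slc6a11, for the astrocyte GABA transporter GAT3, was lower in Brd1+/- than in WT FLX mice (112.3 and 293.8 TPM, -1.45 ± 0.30, adjusted p = 0.0292). Slc6a11 and Slc6a9, the glycine transporter GlyT1, had a negative FLX interaction (-2.38 ± 0.52 and -1.86 ± 0.49, adjusted p = 0.0123 and 0.0426), a test that 1.71% of all genes passed. Of the mural cell genes Notch3 did as well (-1.0 ± 0.21, adjusted p = 0.00887). The negative interactions of Slc6a11 and Notch3 passed under all 41 alternatives run, whereas Col15a1 lost its call in 16 of 27, Slc6a11 between FLX-treated genotypes in 10 of 27, Gjb6 in 19 of 26 and Slc6a9 in 25 of 41, each with its sign kept. No gene of the insulin-like growth factor system, of the collagen processing enzymes, or of the choroid plexus, endothelium, border macrophage, ependyma and red blood cell lists passed in any comparison.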

How the data were processed

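Amygdala punches were profiled in 48 libraries, 8 in each of 6 groups taken from the sample labels; the series' design text names other regions, and the labels were followed. The submitters' processing notes name Trimmomatic, HISAT2 2.1.0, StringTie 1.3.4 and GRCm38, and per the study's methods reads were filtered for quality, aligned with HISAT2 and quantified with StringTie. The values the authors deposited are TPM per gene and library. They sum to nearly the same total in each library, so a rise of some transcripts lowers the share of others, and depth per library cannot be read from them. No confidence interval for counting error was computed.

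The 9 members and all gene lists were chosen with earlier results of these data known. Symbols and coordinates came from GENCODE M21, which holds 52489 of the 52636 IDs. Values were transformed to log2(TPM + 0.1), which understates changes of low genes. A gene was tested with at least 0.1 TPM in at least 8 samples of the fit. Groups were compared in limma 3.58.1 (R 4.3.3; eBayes with trend, two-sided, no covariate, only the groups compared), with Benjamini-Hochberg adjusted p under 0.05 over all genes called. limma was used since TPM are not counts. The p-values measure the spread between these libraries. Correlation with Ttr was tested with 100000 permutations (numpy 2.4.6) and adjusted likewise. Genes named were the members, Ttr, Brd1, the 3 genes most alike to each member (1 of them is not reported here), and up to 3 called genes per list, comparison and direction; others in the text were chosen after their values were seen. On simulated data the code was checked for recovery of known changes. Alternatives were pseudocounts of 0.01 and 1, no filter or 1 TPM, median-ratio scaling, no trend, the replicate number as a block, Ttr or the range of the animal code as a covariate, 1 fit of all libraries, and leaving out each library; leaving out 3 libraries together and splitting at 100 TPM of Ttr were added after the data were seen.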

Additional observations from a re-analysis of the deposited data

Results flagged for a closer look

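In 54 checks of members by groups of 8 libraries, 6 values lay further from the next value of their group, relative to its range on the log2 scale, than Dixon's 95% limit for 8 samples allows, and chance gives about 1 group in 20. Of the 6, 5 came from the pair of libraries richest in Ttr. In WT vehicle 1, Igf2 was 430.6 TPM against 11.7 to 20.8 TPM in the other 7, Igfbp2 was 406.9 TPM against 6.51 to 26.7 TPM, and Slc6a20a was 27.4 TPM against 3.73 to 6.75 TPM. In Brd1+/- FLX 8, Igf2 was 474.0 TPM against 16.1 to 47.8 TPM and Slc6a20a was 32.1 TPM against 4.30 to 8.69 TPM. The other was Dcn in WT vehicle 5, at 322.3 TPM against 5.23 to 25.3 TPM, where Ttr was 17.4 TPM, and where no other member lay past the limit. Slc6a13 in WT FLX 6, at 41.3 TPM, did not pass the limit on this scale. No difference in genotype effect between drug and vehicle passed for any member.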

How the results depend on the processing

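No member was called in 256 fits of the 12 comparisons that left out 1 library each, or in 120 fits with another setting, so the count of members called was 0 to 0 throughout; the smallest adjusted p of a member was 0.194, for the FLX interaction without WT vehicle 1, WT FLX 6 and Brd1+/- FLX 8, an alternative chosen after seeing the data. Replicate numbers did not pair the mice (same-number correlations from -0.42 to 0.77), and with the replicate block the count of members was 0 in all 12 comparisons. The count of members correlated with Ttr was 5; it was 3 with Spearman's rho and, in splits chosen after seeing the data, 0 in libraries with Ttr under 100 TPM, where r of Igf2 was -0.0051, and 2 in libraries with at least 100 TPM, both with fewer libraries. The shares of all genes called, against which members were read, depended on the setting. Calls between genotypes went from 172 (0.708% of genes) to as few as 24 and as many as 1.46% of genes under vehicle and from 364 to between 29 and 938 under FLX, those of FLX against vehicle in WT mice from 79 to between 0 (replicate block) and 970 (without the 3 libraries), those of IMN and FLX against vehicle in Brd1+/- mice from 188 and 178 to as few as 23 and 24 and as many as 439 and 415, those of the IMN and FLX interactions from 143 and 455 to as few as 15 and 259 and as many as 212 and 832, and those among the 6 groups from 476 to between 68 and 693; the cause was not tested. Brd1 between FLX-treated genotypes lost its call in 15 of 27 alternatives with its direction kept. Of the values of single genes that neither fit called, 185 changed sign. Reads per library are unknown, so the precision of low TPM values, as for Lum and Col3a1, is unknown too.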
